A study of Mus musculus with 2 samples.

Results

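The genes described here are the dynein and CFAP genes of the motile cilium, chosen by symbol alone. A gene was a member where its symbol began with Dnah and a digit, Dnaic, Dnali, Dnaaf, or Cfap and a digit, and where at least 1 of its annotated transcripts was of the type protein_coding. Of 54 matching genes 53 met both conditions, out of 55536 annotated genes. The other one, the antisense RNA Dnah2os, has no coding transcript.

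Motile cilia bend because dynein arms on one doublet microtubule walk along its neighbour. Outer and inner dynein arms are built from heavy chains, which are the motors, and from intermediate and light chains. Assembly factors (DNAAF proteins) fold and join the arms in the cytoplasm before transport. CFAP proteins, named for cilia and flagella, sit in the doublet wall, the radial spokes, the central apparatus and the complexes that tether the inner arms. In the brain such cilia are known on ependymal cells, which line the ventricles, and sperm tails carry related arms. Most neurons and astrocytes bear an immotile primary cilium without dynein arms.

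The samples were hippocampal tissue (the labels name a layer of the hippocampus) from male B6CASTF1/J mice, hybrids of C57BL/6J and CAST/EiJ, aged 18 to 20 months, with no treatment or engineered allele named. Total RNA (300 ng a library) was sequenced, with spike-ins whose label names stranded, ribo-reduced libraries. There was 1 group with 2 libraries, called biological replicates 1 and 2. Both carry one donor record. Nothing in the labels tells separate animals from repeat samples, so their spread may be technical.

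Replicate 1 held 34563482 expected counts on annotated genes, and replicate 2 held 32370292. At these depths a count of 0 allows up to 0.0868 and 0.0927 CPM (counts scaled to a common library total), for counting error only. The libraries differed beyond sampling noise, with a chi-square of 9.51 per degree of freedom over 15601 genes with 50 counts or more. Over the 52 members with counts it was 1.94. Levels are TPM, the share of a transcript in the library after correction for its length, and a gene counts as detected at 1 TPM or more in each library. All 10 neuron markers and all 10 astrocyte markers were detected. The 22 choroid plexus markers summed to 103.7 TPM in replicate 1 and 894.0 in replicate 2, and all 22 were higher in replicate 2. No molecular identifiers were counted, so reads may repeat a molecule and all intervals below cover counting error only. With 1 group, no comparison of conditions and no p-value was possible.

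The members were a low to moderate group in this tissue. Detection was reached by 21 of 53 members (39.6%), where the background was 57.5% of all 22028 protein-coding genes. The median member TPM was 0.69 in replicate 1 and 0.77 in replicate 2, which gives 0.730 ± 0.057 (SD, n = 2). The median over all protein-coding genes was 3.13 ± 0.085 (SD, n = 2). Mean levels spread widely. There were 4 members at 10 TPM or more, 4 from 5 to 10, 13 from 1 to 5, 28 from 0.1 to 1, 3 below 0.1 and 1 listed at 0. In a bulk sample, a low level from few cells and a low level in every cell cannot be told apart.

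By TPM, a few CFAP genes held most of the group's summed level. The 4 highest members, Cfap36, Cfap298, Cfap20 and Cfap97, took 60.8% of the summed member TPM in replicate 1 and 58.4% in replicate 2. By expected counts, which are not corrected for length, the same 4 took 38.1% and 38.4%. All members together took 0.0284% of gene counts in replicate 1 (Clopper-Pearson 95% interval 0.0279 to 0.0290) and 0.0291% in replicate 2 (0.0285 to 0.0297).

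**Figure D1:**
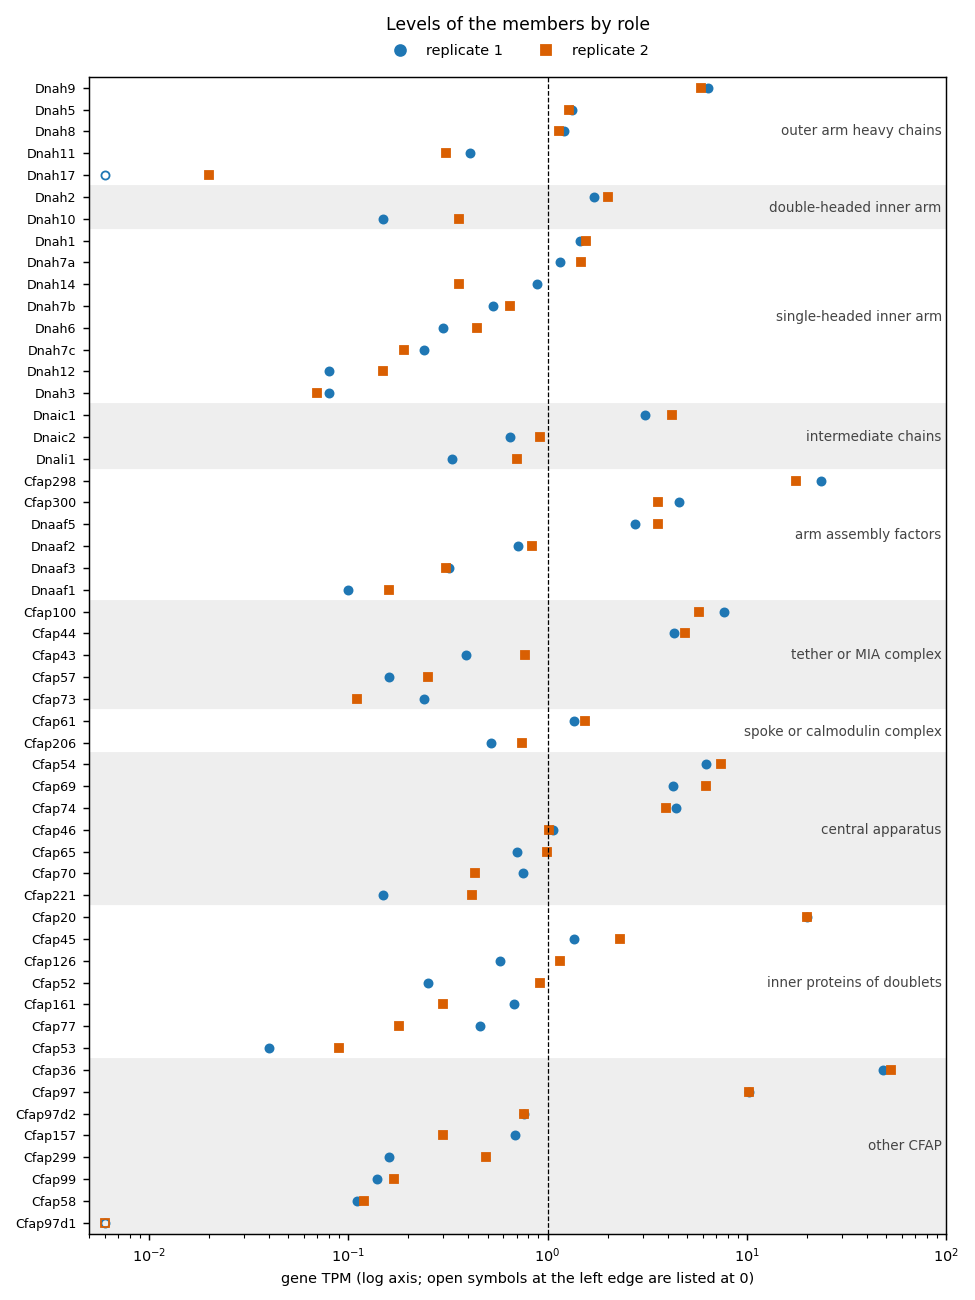
Gene TPM of each of the 53 members (log axis) in replicate 1 (circles) and replicate 2 (squares), grouped by role, with a dashed line at a TPM of 1. Dnah9 sits highest among the heavy chains at 6.36 and 5.89 TPM, and Cfap36 highest of all at 48.3 and 52.8; Cfap97d1 in both libraries and Dnah17 in replicate 1 are listed at 0.

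The heavy chains, the motors of the arms, were led by Dnah9. Among the outer arm chains, Dnah9 (chr11:65831282-66168551, minus strand, mm10 with GENCODE M21) is known from the distal part of human airway cilia. Its expected counts were 1368 in replicate 1 and 1143 in replicate 2, and its level was 6.36 and 5.89 TPM, or 6.13 ± 0.33 (SD, n = 2). Dnah5 (chr15:28203752-28472052, plus strand), the partner heavy chain of the outer arm, had 519 and 459 counts. Its level was 1.33 and 1.28 TPM. The Dnah9 level was therefore 4.78 times the Dnah5 level in replicate 1 and 4.60 times in replicate 2, a gap far larger than the difference between libraries. Dnah11, the chain paired with Dnah5 in proximal human airway cilia, was lower again at 0.41 and 0.31 TPM, from 95 and 92 counts.

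Dnah8 and Dnah17 are the outer arm heavy chains known from sperm tails. Dnah17 (chr11:118021723-118130634, minus strand) had 1 count in replicate 1 and 5 in replicate 2, close to the limit of 3 counts that a count of 0 allows, so no level was set for it. Dnah8 (chr17:30624354-30877365, plus strand) had 54 and 58 counts and 1.21 and 1.14 TPM. The gene level of Dnah8 thus differed little from that of Dnah5, but the transcripts behind it differed, as described below. Of 10 spermatid markers, 8 had no count in either library. Acr had 9 counts in both and Odf1 had 0 and 1.

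Inner arm heavy chains were present at lower levels. Dnah2 and Dnah10 form the double-headed inner arm. Dnah2 had 179 and 133 counts and 1.71 and 2.01 TPM. Dnah10 had 47 and 54 counts and 0.15 and 0.36 TPM, below Dnah2 in both libraries.

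Of the single-headed inner arm chains, Dnah1 had 145 and 156 counts (1.45 and 1.55 TPM). Dnah7a had 283 and 246 counts (1.16 and 1.47 TPM). Both exceeded a TPM of 1 in both libraries. Dnah1 was the higher by gene TPM in both, and Dnah7a by counts and, as described below, on full coding models. Dnah14, a less studied member of the family, read 0.89 and 0.36 TPM from 30 and 20 counts. Its full coding model held only 0.07 and 0.05 of that TPM. Dnah6 read 0.30 and 0.44 TPM from 95 and 125 counts. By gene TPM, Dnah12 (0.08 and 0.15 TPM) and Dnah3 (0.08 and 0.07 TPM) were the lowest of these chains. On full coding models Dnah14 was below Dnah6 and Dnah12 in both libraries. In all, 6 of 15 heavy chains passed a TPM of 1 in both libraries.

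Dnah7 exists in the mouse as 3 copies on chromosome 1, which raises the question of how far short reads can tell them apart. Dnah7b (chr1:46066315-46373546, plus strand) and Dnah7c (chr1:46425592-46807476, plus strand) lie next to each other, and Dnah7a (chr1:53397006-53706784, minus strand) lies apart. Over 12072 aligned coding bases, Dnah7a and Dnah7b were 97.0% identical, Dnah7a and Dnah7c 96.8%, and Dnah7b and Dnah7c 97.3%. The effective lengths in the files imply reads or fragments of 100 bases. Of all 100-base windows in its transcripts, Dnah7a shared 19.1% with the other copies, Dnah7b 14.3% and Dnah7c 23.9%.

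The following 100-base stretch shows such a window. It lies in exon 12 of Dnah7a-201 (chr1:53636005-53636104, minus strand) and is the same in Dnah7b-201 (chr1:46123690-46123789, plus strand) and Dnah7c-204 (chr1:46514626-46514725, plus strand), so a read from it cannot be placed.
All copies: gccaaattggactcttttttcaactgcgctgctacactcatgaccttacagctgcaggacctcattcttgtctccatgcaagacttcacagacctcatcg
A stretch in the next coding exon separates them, with capitals at the 19 positions where the copies are not all alike. The places are chr1:53635338-53635437 (minus strand), chr1:46124349-46124448 (plus strand) and chr1:46515286-46515385 (plus strand).
Dnah7a: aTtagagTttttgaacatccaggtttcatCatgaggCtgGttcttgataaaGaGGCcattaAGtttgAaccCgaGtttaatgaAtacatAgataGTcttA
Dnah7b: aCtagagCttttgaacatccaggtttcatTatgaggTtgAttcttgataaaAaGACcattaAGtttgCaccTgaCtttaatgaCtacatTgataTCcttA
Dnah7c: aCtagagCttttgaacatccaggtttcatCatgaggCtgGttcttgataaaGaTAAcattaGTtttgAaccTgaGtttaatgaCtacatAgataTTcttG

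The deposited counts of all 3 copies were fractional, since shared reads were split by a model. Dnah7a stood at 1.16 and 1.47 TPM, Dnah7b at 0.53 and 0.65, and Dnah7c at 0.24 and 0.19. Dnah7a exceeded Dnah7b 2.19-fold in replicate 1 and 2.26-fold in replicate 2. Dnah7b exceeded Dnah7c 2.21-fold and 3.42-fold. The order was the same in both libraries of this quantification. In the authors' second quantification, described below, Dnah7b read 0.80 and 0.96 TPM and Dnah7c 0.81 and 0.17. There the order of Dnah7b and Dnah7c by TPM was reversed in replicate 1. By its counts Dnah7b stayed the higher, with 133.8 and 148.0 against 33.4 and 22.4. The posterior SD that the authors deposited beside the counts was 3.82 and 3.38 counts for Dnah7a, 3.90 and 3.58 for Dnah7b and 2.33 and 2.45 for Dnah7c, small beside the gaps in counts. The copies are annotated on the C57BL/6J assembly, and how the CAST/EiJ copies align to it was not tested.

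Among the intermediate chains, Dnaic1 had 60 and 77 counts and 3.09 and 4.21 TPM. Dnaic2, its partner in the outer arm, had 44 and 47 counts and 0.65 and 0.92 TPM. Dnali1, a light intermediate chain of inner arms, had 17 and 33 counts and 0.33 and 0.70 TPM. By gene TPM Dnaic1 was above the other two in both libraries, while its counts were closer to those of Dnaic2; its TPM lay mostly on short models, as described below.

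Of the arm assembly factors, Cfap298 (chr16:90925809-90935114, minus strand) was the highest, at 23.5 and 17.6 TPM from 468 and 410 counts. Cfap300 followed with 139 and 124 counts (4.58 and 3.60 TPM). Dnaaf5 had 232 and 227 counts (2.76 and 3.59 TPM). Dnaaf2, a co-chaperone for dynein folding, read 0.71 and 0.84 TPM. Dnaaf3 (0.32 and 0.31 TPM) and Dnaaf1 (0.10 and 0.16 TPM) were lower. Exons on the opposite strand overlap 53.6% of the exon bases of Cfap298, 32.7% of Dnaaf2 and 20.7% of Dnaaf1. Dnaaf2 also shares 36.9% of its windows with Gm49383 and Gm49384 on its own strand. Whether counting used strand is not stated for each table, so these levels are uncertain.

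In the group of inner arm tethers and the neighbouring MIA complex, Cfap100, a MIA subunit, had 232 and 174 counts (7.65 and 5.74 TPM). Cfap44, a tether of the double-headed arm, had 236 and 250 counts (4.29 and 4.87 TPM). Its partner Cfap43 stood lower, with 36 and 52 counts (0.39 and 0.77 TPM). Cfap57 (0.16 and 0.25 TPM) and Cfap73 (0.24 and 0.11 TPM) were lower still. Cfap73, the partner of Cfap100 in the MIA complex, had only 5 and 2 counts.

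Central apparatus members were led by Cfap54 (chr10:92775619-93081618, minus strand), with 939 and 905 counts (6.27 and 7.45 TPM). Cfap69 had 319 and 347 counts (4.25 and 6.26 TPM). Cfap74 had 299 and 274 counts (4.39 and 3.94 TPM). Cfap46, which sits in the same projection as Cfap54 and Cfap74, had 68 and 58 counts (1.07 and 1.02 TPM). Cfap65 (0.70 and 0.99 TPM), Cfap70 (0.75 and 0.43 TPM) and Cfap221 (0.15 and 0.42 TPM) stayed under a TPM of 1 in both libraries. Cfap74 shares 4.55% of its exon bases with 5830444B04Rik on the opposite strand.

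Of the spoke and calmodulin complex members, Cfap61 read 1.35 and 1.54 TPM from 50 and 55 counts, and Cfap206 read 0.52 and 0.74 from 18 and 27. The doublet inner proteins ranged from Cfap20 at 20.0 and 20.0 TPM down to Cfap53 at 0.04 and 0.09 TPM. Cfap20 had 656 and 609 counts, and is also a nuclear protein in addition to its place in the doublet wall. Cfap45 had 59 and 62 counts (1.35 and 2.30 TPM). Cfap126, also called Flattop, had 13 and 22 counts (0.58 and 1.15 TPM). Cfap52 had 11 and 26 counts (0.25 and 0.92 TPM). Cfap161 (0.68 and 0.30 TPM) and Cfap77 (0.46 and 0.18 TPM) read lower in replicate 2, on 33 and 18 counts in all, with counting intervals of the ratio that include 0. Only Cfap20 and Cfap45 of the 7 passed a TPM of 1 in both.

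The other CFAP genes held both ends of the range. Cfap36 (chr11:29221532-29247409, minus strand), a partner of the small GTPase ARL3, had 1805 counts in both libraries and 48.3 and 52.8 TPM, above 91.3% of protein-coding genes. Cfap97 had 821 and 790 counts (10.2 and 10.2 TPM). Cfap97d2 (0.76 and 0.76 TPM) and Cfap157 (0.69 and 0.30 TPM) came next. Cfap299 had 12 counts over both libraries, Cfap99 had 15 and Cfap58 had 18. Cfap97d1 (chr11:101984279-101992264, plus strand) had no count in either library.

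Because total RNA includes partly spliced transcripts, the gene TPM was split by annotated transcript model. Transcripts of the type protein_coding held 76.3% of the summed member TPM in replicate 1 and 79.4% in replicate 2, or 77.9% ± 2.2 (SD, n = 2). Models with a retained intron held 12.3% ± 0.97 (SD, n = 2), processed transcripts 4.82% ± 0.85 (SD, n = 2) and models marked for nonsense-mediated decay 4.16% ± 0.73 (SD, n = 2). By expected counts the coding share was 89.3% ± 0.83 (SD, n = 2), since short models collect few reads but weigh heavily per base.

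A stricter class held only coding models that reach at least 50% of the gene's longest coding length, called long models here. These held 66.7% ± 1.9 (SD, n = 2) of the member TPM and 82.9% ± 0.65 (SD, n = 2) of the counts. Among heavy chains the gap was wider. Long models held 43.3% ± 0.70 (SD, n = 2) of their TPM and 79.5% ± 0.43 (SD, n = 2) of their counts. Counted on long models alone, 12 members were detected, against 21 by gene TPM. The class was not applied to all protein-coding genes, so the drop cannot be called particular to the members.

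Single heavy chains differed widely in this respect. All counts of Dnah5 belonged to its only model, Dnah5-201, with 79 exons and 4621 codons. For Dnah9, the full model Dnah9-201 took 994 and 801 counts (2.89 and 2.53 TPM). A shorter coding model with 31 exons took 311 and 299 counts (2.09 and 2.19 TPM). On long models, Dnah9 was 2.17 times Dnah5 in replicate 1 and 1.98 times in replicate 2, a smaller ratio than by gene TPM but in the same direction.

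For Dnah1 the processed transcript Dnah1-202, of 2897 bases, took 90 and 85 counts and 86.3% of the mean TPM. The full coding model Dnah1-201 took 55 and 71 counts, and its level was 0.17 and 0.24 TPM, below the 0.91 and 0.85 TPM on long models of Dnah7a. For Dnah8 long models had no count in replicate 1 and 0.04 TPM in replicate 2. Its leading model by TPM, Dnah8-202, is a retained intron transcript of 633 bases, and most of its counts in replicate 1 (30 of 54) lay on Dnah8-211, a model of 91 exons marked for nonsense-mediated decay. Long models of Dnah2 held 0.45 and 0.28 TPM of its 1.71 and 2.01, and its leading model by TPM was a coding model of only 696 bases. The counts of Dnah2 were assigned to Dnah2-201 in replicate 1 (151 of 179) and to Dnah2-202 in replicate 2 (88 of 133), models that differ by 6 codons. Dnah3 and Dnah6 also switched between near-equal coding models from one library to the other.

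**Figure D2:**
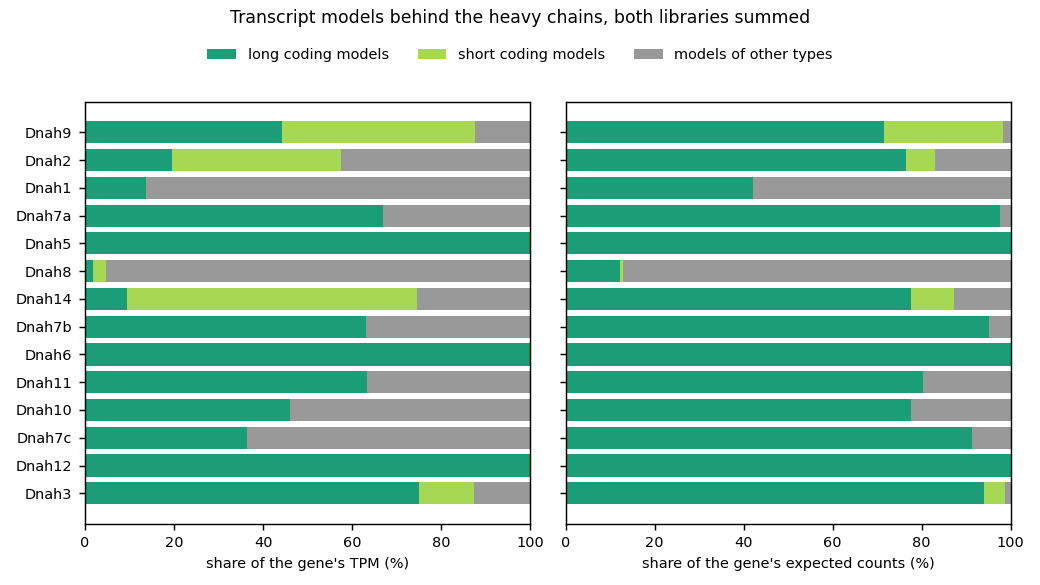
Share of each heavy chain's TPM (left) and expected counts (right), in percent and summed over both libraries, held by long coding models, short coding models and models of other types. Dnah5 is wholly in its long model on both scales, Dnah1 has 13.7% of its TPM there but 42.2% of its counts, and Dnah8 1.69% and 12.2%; Dnah17 is not drawn.

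The leading model was not of the type protein_coding in 8 members. These were Dnah1, Dnah7c, Dnah8, Dnaic1, Cfap44, Cfap46, Cfap53 and Cfap70. In Dnaic1 the retained intron model Dnaic1-203 took 44 and 39 counts, and the full coding model Dnaic1-201 took 6 and 20, or 0.10 and 0.36 TPM. On long models Dnaic1 was therefore below Dnaic2 (0.56 and 0.54 TPM) in both libraries, the reverse of their order by gene TPM. Long models of Cfap46 held 0.12 and 0.07 TPM, where long models of Cfap54 held 3.59 and 3.72. In Cfap44 the leading model by TPM was Cfap44-207, a non-stop decay model of 593 bases, while 67.2% of its counts lay on long models.

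Other members were carried by full models. Long models held 92.0% of the TPM of Cfap36, 90.9% of Cfap97, 88.4% of Dnaaf5 and 85.1% of Cfap300. All counts of Dnah6 and Dnah12 lay on long models. Dnaaf2, Dnaaf3 and Dnali1 have only 1 annotated model each, so their counts could lie nowhere else. Cfap298 was between, with long models at 11.74 and 11.98 TPM of its 23.5 and 17.6. The rest of the difference in its gene TPM lay on the processed transcript Cfap298-204 (3.51 TPM in replicate 1 and 0 in replicate 2) and the decay model Cfap298-202 (2.35 and 0). Its intron-retaining model was nearly level, at 5.90 and 5.61 TPM. This split of Cfap298 depended on the table. In the authors' second quantification, described below, its gene TPM was 34.5 and 30.5. There the leading long model held 22.2 and 22.8 TPM, and another long model 8.21 and 5.27. The intron-retaining model held only 1.45 and 2.45 TPM there. Cfap298-204 (1.90 and 0) and Cfap298-202 (0.74 and 0) fell in the same direction, by less.

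**Figure D3:**
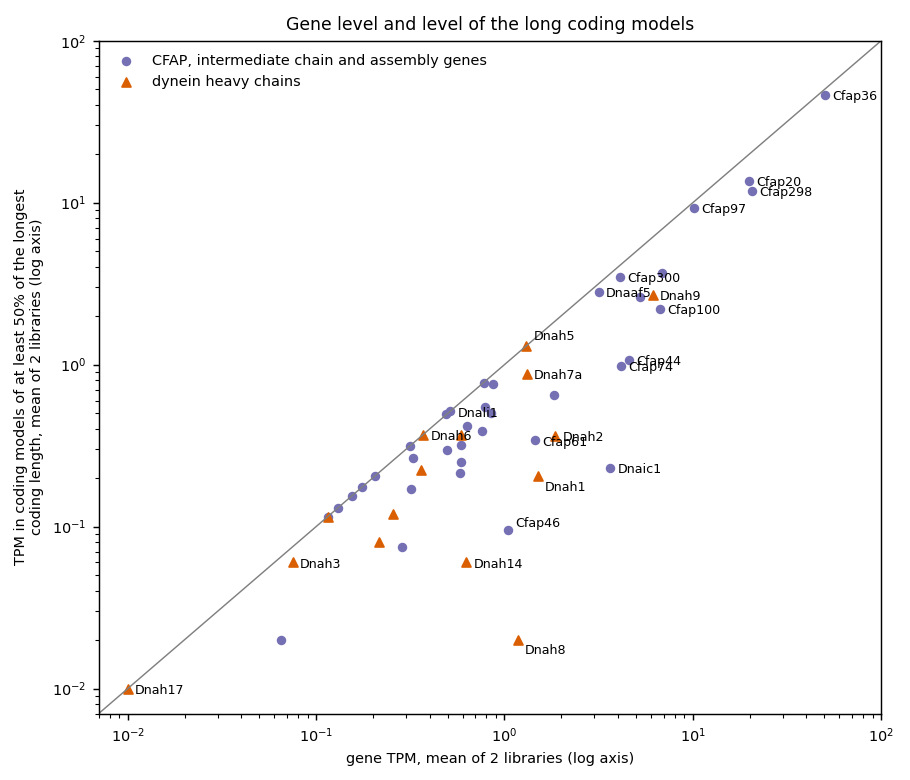
Gene TPM (x axis) against the TPM held by long coding models (y axis), each the mean of both libraries on a log axis, for the 52 members with counts; the line marks equality. Cfap36, Dnah5, Dnah6 and Dnali1 lie on or near the line, and Dnah8, Cfap46, Dnah1 and Dnaic1 far below it, with long model means of 0.02, 0.095, 0.205 and 0.23 TPM. Dnah5 and Dnali1 have only 1 annotated model each, which places them on the line.

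The libraries were then compared with each other. Ratios are replicate 2 over replicate 1 of expected counts after TMM scaling, with a prior count of 0.5. TMM scaling sets most genes to no change. Counts were rounded for the scaling factors and the counting intervals, not for the ratios. At a mean CPM of at least 1, 30 members could be compared. None was 2-fold higher or lower, where 0.356% of all 14887 genes were at least 2-fold higher and 0.161% at least 2-fold lower. The summed member counts (9832 and 9407) gave a log2 ratio of 0.01 with a 95% counting interval from -0.03 to 0.05. The median member log2 ratio was 0.11, beside 0.00 over all genes. Of the 30 members, 20 were higher in replicate 2 (66.7%, beside 51.0% of all genes) and 10 lower. Within 1.5-fold lay 28 members (93.3%, beside 97.7% of all genes).

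Small shifts beyond counting error went both ways. The counting interval lay above 0 in 3 of 30 members, where the background was 9.98% of genes, and below 0 in 3, where it was 8.46%. These shares are near the background.

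Higher in replicate 2 were Dnah12 (25 and 42 counts), with a log2 ratio of 0.81 (95% counting interval 0.08 to 1.60), Dnah6, with 0.47 (0.07 to 0.87), and Cfap65, with 0.44 (0.02 to 0.87) on 86 and 111 counts. Cfap43 had a log2 ratio of 0.60 (-0.04 to 1.26), Dnaic1 0.43 (-0.07 to 0.95) and Dnah10 0.27 (-0.32 to 0.87), with intervals that include 0. Lower in replicate 2 were Dnah2, with -0.35 (-0.69 to -0.02), Cfap100, with -0.34 (-0.63 to -0.05), and Dnah9, with -0.18 (-0.30 to -0.07). Cfap46 (-0.15), Dnah7a (-0.13) and Cfap298 (-0.12) came next, with intervals that include 0.

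Below a mean CPM of 1, ratios rest on few reads. Of the 22 members there with any count, 5 were at least 2-fold higher in replicate 2 (Cfap52, Dnali1, Cfap221, Cfap299 and Dnah17) and 1 was at least 2-fold lower (Cfap73). Only the intervals of Cfap52 (log2 ratio 1.28, 0.25 to 2.48) and Dnali1 (1.01, 0.15 to 1.97) lay above 0. Thus 22.7% of these members were at least 2-fold higher and 4.55% at least 2-fold lower. Of the 7567 genes with a mean CPM from 0.05 to 1, 10% were at least 2-fold higher and 14.5% lower, and the interval lay above 0 in 2.3% and below 0 in 3.28%. The share of members higher was above that background and the share lower was below it, on 6 members in all, and the difference was not tested.

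**Figure D4:**
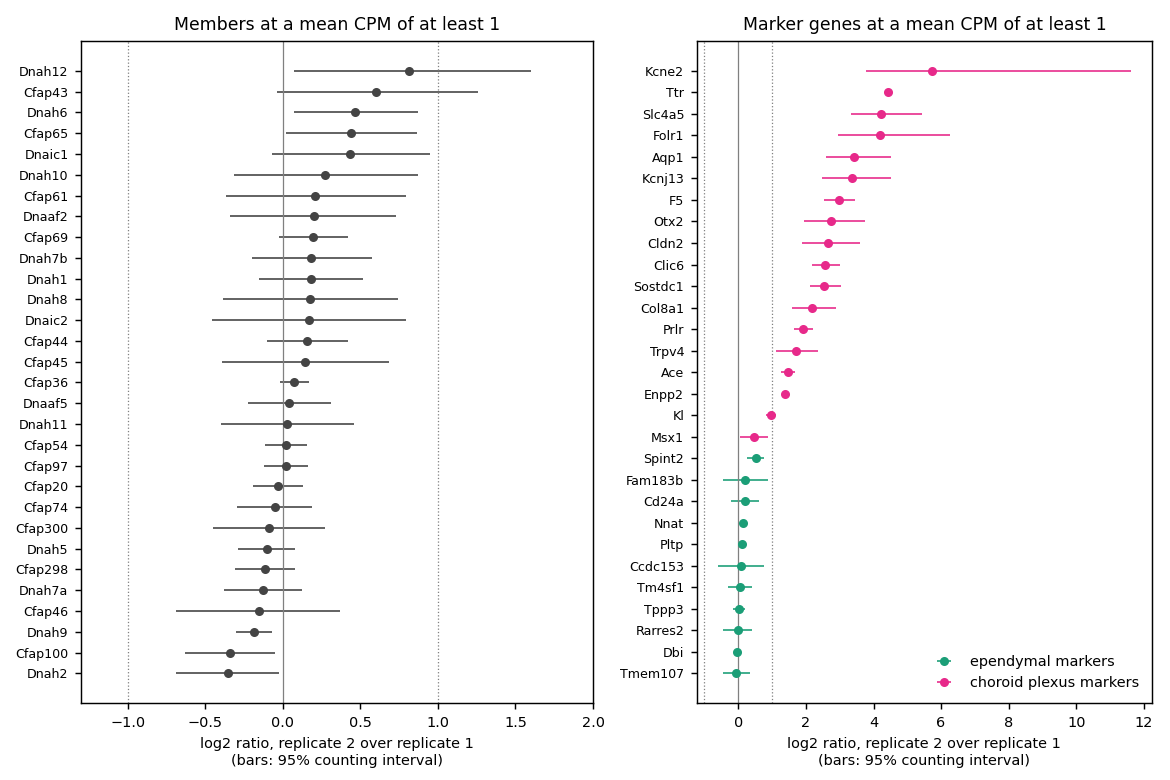
Log2 ratio of replicate 2 over replicate 1 with 95% counting intervals, for the 30 members (left) and for ependymal and choroid plexus markers (right) at a mean CPM of at least 1; dotted lines mark 2-fold. The members lie between -0.35 and 0.81, as do the ependymal markers, while choroid plexus markers reach 5.73.

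Markers of ciliated and neighbouring cells were read beside these ratios. Of the 17 ependymal markers, 13 were higher and 4 lower in replicate 2, and their summed level was 418.5 and 459.4 TPM. Most of that sum was Nnat (189.6 and 216.5 TPM) and Dbi (138.3 and 138.7 TPM), and the 15 other markers summed to 90.6 and 104.2 TPM. None of the 11 at a mean CPM of at least 1 reached 2-fold, and their median log2 ratio was 0.07. In this list 13 of the 17 passed a TPM of 1 in both libraries, and levels varied. Tmem107 had 115 and 105 counts (6.00 and 8.12 TPM) and Fam183b had 40 and 44 (3.41 and 4.25). Others were lower. Ccdc153 had 38 and 38 counts (1.85 and 2.20 TPM), Tmem212 had 17 and 23 (1.10 and 1.62), Dynlrb2 had 11 and 14 (1.05 and 1.46) and Sntn had 5 and 4 (0.17 and 0.15). Choroid plexus epithelium, which also bears cilia, differed strongly. Ttr, its thyroid hormone carrier, had 816 and 16859 counts, Folr1 had 4 and 78, and Kcne2 had 1 and 75. The members did not follow that difference in size. The part of choroid plexus RNA in the single ratios of the members was not tested.

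Other genes of the same machinery were read from lists, and counts are out of the genes measured. Measured were 30 of 31 listed intraflagellar transport genes, 25 of 26 radial spoke and nexin genes and 17 of 18 central apparatus genes. So were 18 of 23 doublet inner and tektin genes, 17 of 25 outer arm and docking genes and 14 of 16 assembly factors. Intraflagellar transport serves primary and motile cilia alike. All 30 of its measured genes passed a TPM of 1 in both libraries, with a median of 10.9 ± 0.99 (SD, n = 2). The highest were Kifap3 (68.3 and 73.3 TPM), Kif3a (49.9 and 51.0) and Ift22 (34.7 and 36.0), and the lowest was Ttc30a1 (1.11 and 1.29). Dync2h1, the heavy chain of the transport dynein, had 11.6 and 12.5 TPM. That was 1.82 times Dnah9 in replicate 1 and 2.13 times in replicate 2, and 8.72 and 9.78 times Dnah5.

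Lists of motile cilium parts and regulators had medians nearer to the members, though several also hold genes that act elsewhere, as given below. The radial spoke and nexin genes had 13 of 25 above a TPM of 1 and a median of 1.24 ± 0.21 (SD, n = 2). They ran from Rsph3a (18.1 and 18.9 TPM), Rsph3b (11.85 and 11.97) and Rsph9 (10.4 and 11.7) down to Fbxl13 (0.06 and 0.05). The list of other central apparatus genes had 8 of 17 and a median of 1.00 ± 0.26 (SD, n = 2). It is not purely a central apparatus list, since it also holds genes such as Wdr66, Enkur and Mapk15. Its highest genes were Mycbp (4.30 and 5.49 TPM), Spag6l (3.85 and 3.79) and Spef1 (3.55 and 3.50), and its lowest was Spag17 (0.25 and 0.07). The giant central apparatus gene Hydin read 0.16 and 0.21 TPM from 62 and 77 counts.

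The doublet inner and tektin genes had 7 of 18 above that level and a median of 0.97 ± 0.16 (SD, n = 2). Their top genes, Tuba1a (275.7 and 304.8 TPM) and Tuba1b (176.5 and 200.6), are tubulins of all cells. Ribc1 was the lowest (0.03 and 0.03 TPM). The other outer arm and docking genes had 10 of 17 and a median of 1.65 ± 0.035 (SD, n = 2). The light chains Dynll1 (283.9 and 333.5 TPM), Dynll2 (191.0 and 207.5) and Dynlrb1 (117.8 and 119.8), which cytoplasmic dynein also uses, were the highest, and Nme8 the lowest (0.04 and 0.03). The axonemal light chain gene Dnal1 read 38.3 and 37.5 TPM, 6.02 and 6.37 times Dnah9.

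The list of other assembly factors had 10 of 14 above a TPM of 1 and a median of 3.36 ± 0.12 (SD, n = 2). Its highest entries, Tubb4b (109.1 and 131.9 TPM), a tubulin, and Kdm4a (16.7 and 17.4), a histone demethylase, are not themselves arm assembly factors. Both enter the count and the median. Ruvbl1 (15.3 and 18.4) came next, and Pih1d3 had no count. Regulators of multiciliated cells had 8 of 14 and a median of 1.72 ± 0.24 (SD, n = 2). Rfx3, a factor that binds the X-box of cilium genes, was the highest (42.8 and 46.1 TPM), followed by Tfdp1 (22.9 and 23.4) and E2f4 (14.5 and 14.2). Foxj1, the main switch of motile cilium genes, read 2.43 and 3.40 TPM from 154 and 198 counts. Cdc20b had no count.

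**Figure D5:**
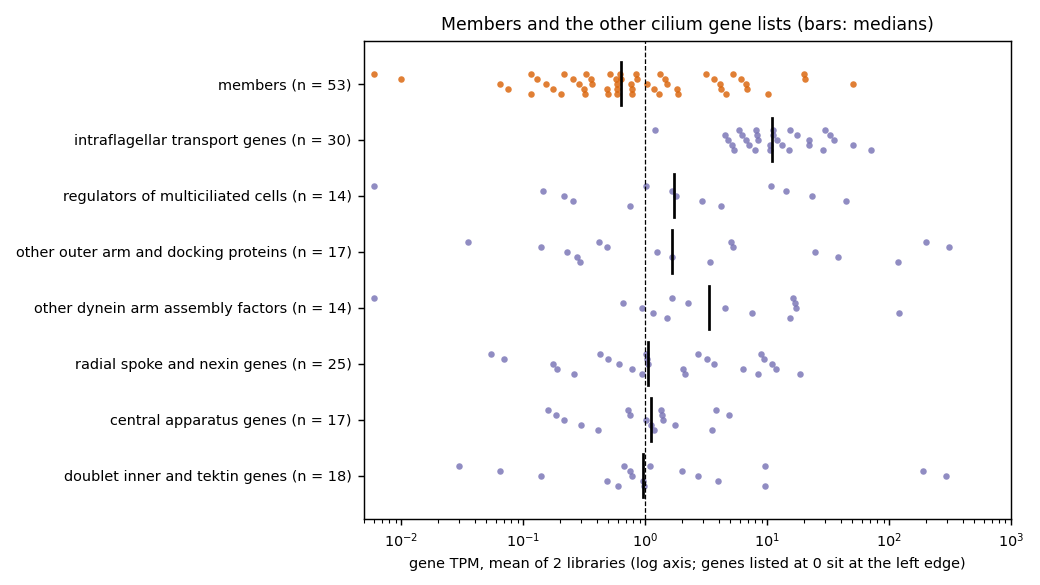
Mean TPM of both libraries (log axis) for the 53 members and for 7 lists of other cilium genes; each point is a gene, black bars are medians and the dashed line marks a TPM of 1. Intraflagellar transport genes all lie above 1 with the highest median; medians of the motile cilium lists lie between 0.96 and 3.36, and the members' median of mean levels is 0.63.

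Since RFX factors and FOXJ1 are the known regulators of these genes, the members' promoters were searched for their motifs. RefSeq promoters of the build GRCm38.p6 (250 bases before to 50 after the start, the one listed first per gene) were found for 44 of 53 members. GTTGCC, the core of the X-box, was looked for on both strands. It occurred in 17 of 44 member promoters (38.6%) and in 12.7% of 27025 promoters of all genes. Of the 19 detected members with a promoter 9 held it, and of the 25 others 8 did. Promoters of Dnah9 and Dnah5 did not hold these letters.

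Cfap298, the highest assembly factor, was the member with the full inverted repeat (GTTGCC facing its reverse complement, 2 bases apart), which 0.0888% of all promoters hold. It holds a further pair spaced by 3 bases. The pairs lie 188 to 175 and 69 to 55 bases before the RefSeq start, within exons that GENCODE annotates for Cfap298. The 3 copies of Dnah7 each hold the core once, and Dnah10, Cfap74, Cfap300 and Cfap20 are shown because they come from different roles. Capitals mark the core on either strand, and each line is read along the gene's own strand.
Cfap298, far pair (chr16:90935016-90935045, minus strand): gggttttgGTTGCCcgGGCAACagctactt
Cfap298, near pair (chr16:90934897-90934925, minus strand): tttgactGTTGCCcctGGCAACagccact
Dnah7a (chr1:53706967-53706996, minus strand): tcgctcctcacaGTTGCCtgccaccctctg
Dnah7b (chr1:46066678-46066707, plus strand): tacaggagcacaGTTGCCacccacccttaa
Dnah7c (chr1:46425287-46425316, plus strand): tcactcctcagaGTTGCCttccaccctctg
Dnah10 (chr5:124725053-124725082, plus strand): cgcgctggcgccGTTGCCcaggtccccgtt
Cfap74 (chr4:155409062-155409091, plus strand): gagaatcgtctgGGCAACagtcagctttga
Cfap300 (chr9:8042980-8043009, minus strand): aacacaaagactGGCAACctccttccattt
Cfap20 (chr8:95434946-95434975, minus strand): gaatagtcccttGGCAACcaagttccgcgc

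The flanks of Dnah7a and Dnah7c resemble each other, and Dnah7b differs more. Their cores begin 200, 219 and 163 bases before the start, in that order. Looser inverted repeats were also searched. GTTNCC repeats 1 to 3 bases apart were found in 1 member (2.27%, against 0.788% of all promoters), and GTNNCC repeats 1 to 4 bases apart in 6 (13.6%, against 3.86%); both sets include the Cfap298 repeat. The forkhead motif TGTTTAC was found in 3 members (6.82%, against 3.55%) and its variant TGTTTGC in 2 (4.55%, against 5.04%). CCAAT, a general promoter motif, was found in 16 (36.4%, against 37.9%). These are matches of letters on both strands, not binding sites, and a window without them says nothing of the factor.

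Finally, members were compared between the tables of the authors' separate quantifications. For the 43 members with at least 20 counts over both libraries, the estimated count of the second table was a median 1.12 times that of the first. It was at least 1.5 times in 4 members, Cfap45, Cfap74, Cfap97d2 and Dnaaf2. For Cfap74 the second table gave 574 and 488 counts, where the first gave 299 and 274. For Dnah5 it gave 586 and 505, where the first gave 519 and 459.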

How the data were processed

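Total RNA of hippocampal tissue was measured in 1 group of 2 libraries. The assembly was mm10 with GENCODE M21, per the deposited notes. Names of the aligner and counters: not given in the sources used here. From an alignment to the transcriptome, the authors deposited an expected count and TPM for each gene and transcript. Beside each expected count they deposited its posterior SD, treated as a score, and a second transcript table with an estimated count and TPM made from the reads directly, summed per gene here. Since mm10 is a C57BL/6J genome, some CAST/EiJ reads may be lost in alignment; the alleles were not separated.

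The members, the 7 gene lists and 8 marker lists, the roles and the tests were chosen with earlier results of these data known, and the class of long models after transcript values had been seen. Rows of no gene (0.418% and 0.479% of counts) stayed out of library sizes. Levels are deposited TPM; detection is 1 TPM or more in each library. TMM scaling factors (edgeR 4.0.16, R 4.3.3) and 95% Clopper-Pearson intervals used rounded expected counts. Log2 ratios used unrounded expected counts, a prior count of 0.5 and a minimum mean CPM of 1. No model was tested, since the design has 1 group. Steps were tested on simulated data. The alternatives tried were scaling by spike-ins or by DESeq2 1.42.0 size factors, other minimums, prior counts and folds, the second table, rescaled TPM and each library alone. Shared windows were counted over all GENCODE M21 transcripts, overlaps from its exons; Dnah7 coding sequences were aligned with mafft. By rule, every member may be named, with full values for the 4 highest in each role, the 6 largest ratios each way, and the 3 highest and the lowest gene of each list; not every gene so named is reported here.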

Additional observations from a re-analysis of the deposited data

How the results depend on the processing

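No paired analysis was possible because the series has 1 group. The 21 members detected became 28 in the second quantification, 28 at a TPM of at least 0.5 and 48 at a TPM of at least 0.1. They became 29 after rescaling over protein-coding nuclear genes, and ranged from 21 to 22 with either library alone. The share of all protein-coding genes under these other settings is not reported here. Whether the shifts are particular to the members therefore cannot be told. The median member level (0.63 TPM as the median of mean levels) was 1.48 TPM in the second quantification and 1.52 after rescaling over protein-coding nuclear genes, 4.09 over detected members only, and 1.51 CPM without length correction; it ranged from 0.69 to 0.77 with either library alone. Members at least 2-fold higher, 0 as reported, became 2 of 40 at a mean CPM of at least 0.5 (Cfap52 and Dnali1), beside 0.561% of all genes. They became 2 of 30 at 1.5-fold (Dnah12 and Cfap43), beside 0.867%. With no minimum they became 5 of 52, beside 9.11%, and members at least 2-fold lower became 1, beside 11.1%. The median member log2 ratio, 0.11, was 0.15 at a mean CPM of at least 0.5 and with no minimum, -0.0322 at a mean CPM of at least 5 (13 members), and -0.10 under spike-in scaling, which moved the median of all genes to -0.18, so the members stood 0.07 above it. The coding share of member TPM, 77.9%, was 80.6% in the second quantification and 89.3% by expected counts, and ranged from 76.3% to 79.4% with either library alone. The causes of these shifts were not tested beyond the construction of each setting. Members under a mean CPM of 1 have too few reads for a 2-fold difference to be told from counting error in most cases.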

Other observations

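The following cilium genes outside the members were chosen after their values were seen. Tekt1, a tektin of the doublet, had 20 and 48 counts (log2 ratio 1.32), and Drc7, a subunit of the nexin link, had 30 and 67 (log2 ratio 1.22). Mapk15, a kinase linked to ciliogenesis, had 9 and 32 counts (log2 ratio 1.85) at a mean CPM below 1. Mycbpap had 50 and 84 counts (log2 ratio 0.82), close to the largest ratio of a member at a mean CPM of at least 1, that of Dnah12 (0.81). Gas8 (499 and 445 counts, log2 ratio -0.09) and Ccdc39 (446 and 432 counts, log2 ratio 0.03), deeper genes of the nexin link and its ruler, were nearly level.

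Dnah17 differed between quantifications. The second table assigned 27.1 and 40.3 counts to Dnah17-201, a processed transcript of 1361 bases, to which the first table assigned none. Exons of Gm11738 and Pgs1 overlap 2.16% of the exon bases of Dnah17 on the opposite strand, and their part in this difference was not tested.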
